A study of Mus musculus with 4 samples.

Results

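Expression of 9 regulators and initiators of programmed cell death was examined in the mouse testis, namely Bax and Bak1, Bcl2, Bcl2l1 and Bcl2l2, Bbc3 and Bcl2l11, Casp8 and Casp9. They were taken by symbol, and all 9 were found among the 57010 genes counted and passed the filter on low counts, as did 23023 genes in all. Testis RNA came from male ICR mice that were 8 weeks old when obtained, before the treatments. The ULA libraries (ULA 1 and ULA 2) came from mice given 1 intraperitoneal injection of 30 mg/kg busulfan (BUS), an alkylating agent that kills dividing germ cells, and then, starting 2 weeks after it, a daily gavage of 50 mg/kg ursolic acid (ULA), which is a triterpenoid found in plants, for 4 weeks. The BUS libraries (BUS 1 and BUS 2) came from mice given the same injection and the oil vehicle alone. Both groups therefore received busulfan, and untreated testis was not analysed here. The paper's sequencing methods name 2 biological replicates and 1 technical replicate. The sources used here do not say which animals gave the 2 libraries of each group, so p-values measure the spread between these libraries only.

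In the mitochondrial pathway of apoptosis, BAX and BAK form pores in the outer mitochondrial membrane, and BCL2, BCL-X (Bcl2l1) and BCL-W (Bcl2l2) hold them in check. BH3-only proteins such as PUMA (Bbc3) and BIM (Bcl2l11) relieve that restraint in response to damage or loss of survival signals. Released cytochrome c then activates caspase 9 on the apoptosome, while caspase 8 starts the separate pathway from death receptors. In the mouse testis, BCL-W is needed for continued spermatogenesis, and germ cells die by these routes both in normal waves and after chemotherapy.

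The ULA libraries held 16312898 and 15078828 counts and the BUS libraries 18147335 and 18216380. Levels are given in CPM, a gene's counts scaled to the size of its library after adjustment for library composition by TMM. The composition of the libraries differed: the protein-coding share was 87.4% and 76.9% in ULA 1 and ULA 2, against 96.9% and 96.3% in BUS 1 and BUS 2. ENSMUSG00000119584 alone took 7.88% and 18.5% of the counts in ULA 1 and ULA 2, against 0.00418% and 0.000637% in BUS 1 and BUS 2, and Lars2 took 0.714% and 1.31% in ULA 1 and ULA 2, against 0.00260% and 0.00189% in BUS 1 and BUS 2. With both left out of the fit, 5 of the 9 genes fell, as with them, and their median log2 fold change stayed at -1.08. With protein-coding genes alone 4 of the 9 fell, with a median of -0.88, beside 13.9% of the genes tested. Upper-quartile factors also gave 4, with a median of -0.78, beside 10.3% of the genes tested. What else this difference does to the results was not tested. BUS 1 stood apart from BUS 2 in its macrophage markers, whose 9 genes summed to 642 CPM in BUS 1 and 155 CPM in BUS 2. Values without BUS 1 are given below for the 9 genes and for most of the other apoptosis genes that were called. The testis markers were present, with spermatid, spermatocyte, Sertoli and Leydig cell genes all detected.

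Of the 9 apoptosis regulators, 5 fell in ULA relative to BUS testes and none rose. The genes Bbc3, Bax, Bcl2l2, Casp9 and Bak1 fell at an adjusted p under 0.05 from edgeR's quasi-likelihood test, and Casp8, Bcl2, Bcl2l11 and Bcl2l1 did not pass it. Among all genes tested 15.3% fell and 11.8% rose by the same rule, and among the protein-coding genes of the same fit 20.5% fell and 6.94% rose. All 9 log2 fold changes were negative, with a median of -1.08, beside a median of 0.02 over all genes tested and -0.22 over the protein-coding genes. Negative values made up 49.1% of all genes tested and 59.8% of the protein-coding ones. In 7 of the 9 genes both ULA libraries were below both BUS libraries, which was also true of 37.2% of all genes tested and 47% of the protein-coding ones. Both ULA libraries were above both BUS libraries in 0 of the 9, beside 37.9% of all genes. By an unadjusted p under 0.05 with a fold of 1.5, 6 of the 9 were lower, Casp8 being added, and 0 were higher, beside 22.7% and 19.4% of all genes. The shares of 37.9%, 22.7% and 19.4% were not worked out for protein-coding genes. By adjusted p those fell more often and rose less often than all genes. The genes that fell include pore formers, a BH3-only gene and an initiator caspase, which act for cell death, and Bcl2l2, which acts for survival. The count of 5 was 2 with an offset for GC content and transcript length, where 12.5% of all genes tested fell. The median log2 fold change of the 9 was -1.19 without ULA replicate 1 and -0.95 without ULA replicate 2. It was -0.87 without BUS replicate 1 and -1.52 without BUS replicate 2. The medians over all genes in these fits were 0.012, 0.004, 0.027 and 0.076. Fewer genes passed when either ULA library was left out, among the 9 and among all genes. In whole testis RNA, fewer cells of a type and less RNA per cell cannot be told apart.

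**Figure D1:**
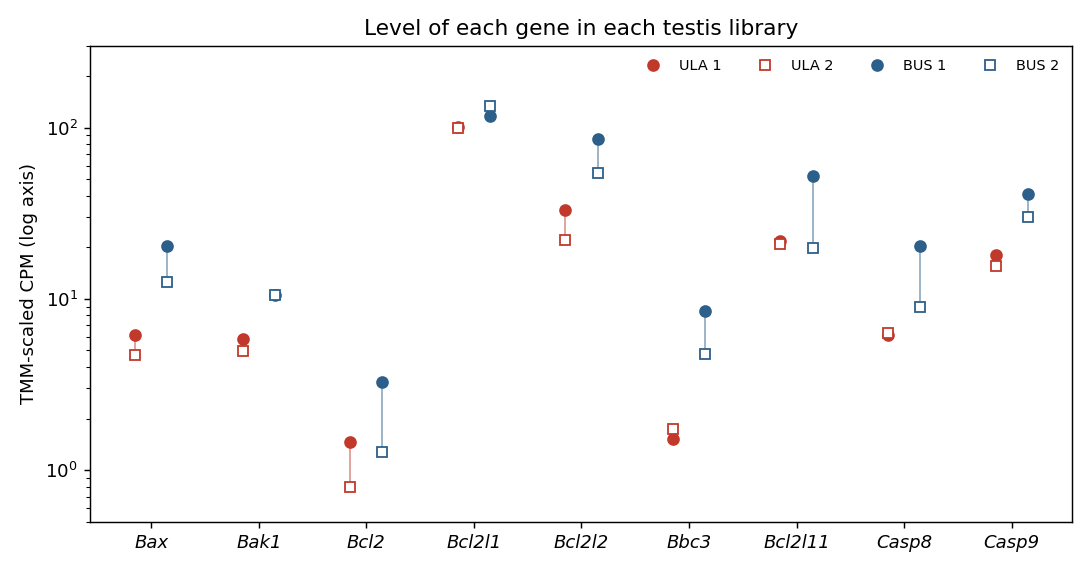
TMM-scaled CPM (log axis) of the 9 genes in ULA 1, ULA 2, BUS 1 and BUS 2, with a line joining the 2 libraries of a group. Bcl2l1 lay near 100 CPM or above in every library, Bcl2 was the lowest gene in each, and the BUS libraries were farthest apart in Bcl2l11, Bcl2 and Casp8.

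The pore formers Bax and Bak1 both fell. Bax (ENSMUSG00000003873, chromosome 7 of GRCm38 from 45461697 to 45466898, minus strand) had 6.11 and 4.68 CPM in ULA 1 and ULA 2, against 20.3 and 12.6 CPM in BUS 1 and BUS 2. Both ULA values were less than each BUS value. The means were 5.39 ± 1.01 CPM in ULA and 16.4 ± 5.41 CPM in BUS testes (SD, n = 2 libraries each), or -1.60 on the log2 scale (SE 0.35, edgeR adjusted p = 0.0146). Bak1 (ENSMUSG00000057789, chromosome 17 from 27019810 to 27029009, minus strand) had 5.81 and 4.99 CPM in ULA 1 and ULA 2, against 10.5 and 10.6 CPM in BUS 1 and BUS 2. It was the gene whose BUS libraries were closest, and the groups did not overlap. The difference was -0.96 on the log2 scale (SE 0.31), and its adjusted p of 0.0478 from edgeR was the nearest to the threshold among the genes called.

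Neither call held under every alternative. With an offset per library for GC content and transcript length, Bax had a log2 fold change of -0.95 (adjusted p = 0.0655) and Bak1 of -0.37 (adjusted p = 0.367). Without ULA replicate 2 the adjusted p was 0.117 for Bax and 0.415 for Bak1, and Bak1 also did not pass without ULA replicate 1 (0.192), with upper-quartile factors (0.120), with limma-voom (0.0518), with at least 10 counts in every library (0.0606) or with protein-coding genes alone (0.0904). The exons of Bak1 share 437 of their 2407 bases with Ggnbp1 (ENSMUSG00000048731) on the opposite strand, and no source used here says whether reads were counted by strand. Ggnbp1, which encodes a partner of the germ cell protein gametogenetin, had 121 and 89 counts in ULA 1 and ULA 2, against 190 and 184 counts in BUS 1 and BUS 2, so its reads could add to those of Bak1. A second Ggnbp1 identifier (ENSMUSG00000117819), with 177 bases shared, had 3 and 1 counts in ULA 1 and ULA 2, against 34 and 34 counts in BUS 1 and BUS 2. Bax shares 192 of its 1576 exonic bases with Gm45808, which had 0 counts in all 4 libraries.

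Of the BH3-only genes, Bbc3 fell and Bcl2l11 did not pass the test. Bbc3 (ENSMUSG00000002083, chromosome 7 from 16308393 to 16318205, plus strand) encodes PUMA, the main BH3-only protein induced by p53 after DNA damage. It had 25 and 22 counts in ULA 1 and ULA 2, against 162 and 97 counts in BUS 1 and BUS 2, which are 1.51 and 1.74 CPM in ULA and 8.52 and 4.78 CPM in BUS testes. The groups were well apart, and at -2.03 on the log2 scale (SE 0.42, edgeR adjusted p = 0.0127) Bbc3 had the largest difference of the 9 genes, with a fitted ULA level at 24.5% of that in BUS testes. The call held without any 1 library and was lost with the GC and length offset (log2 fold change -1.08, adjusted p = 0.0792). Bcl2l11 (ENSMUSG00000027381, chromosome 2 from 128126038 to 128162547, plus strand) encodes BIM. It had 21.9 and 20.9 CPM in ULA 1 and ULA 2, against 52.4 and 19.7 CPM in BUS 1 and BUS 2. The groups overlapped, since BUS 2 was below both ULA libraries and BUS 1 alone was high. The log2 fold change was -0.75 with a 95% interval of -1.66 to 0.16 (adjusted p = 0.181 from edgeR). It was 0.10 without BUS replicate 1 and -1.31 without BUS replicate 2 (adjusted p = 4.06e-06), and it passed with library size alone (0.0486) and with no filter on low counts (0.0313).

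Bax and Bbc3 are textbook targets of p53, and the 250 bases before a RefSeq start of each (GRCm38.p6) are shown because both genes fell and both windows can be read for p53 and GC-box motifs. Capitals mark the GC box (GGGCGG, either strand) and, in Bax only, the first capital run is the p53 half-site at positions -201 to -192 before the start. The last 2 GC boxes of Bbc3 share a base.
Bax promoter, chr7:45466899-45467148, minus strand: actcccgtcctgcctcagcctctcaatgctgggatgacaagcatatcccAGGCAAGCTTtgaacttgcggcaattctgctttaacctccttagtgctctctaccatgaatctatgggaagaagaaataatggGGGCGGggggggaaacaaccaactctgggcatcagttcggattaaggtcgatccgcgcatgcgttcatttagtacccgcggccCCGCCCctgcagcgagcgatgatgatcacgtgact
Bbc3 promoter, chr7:16309333-16309582, plus strand: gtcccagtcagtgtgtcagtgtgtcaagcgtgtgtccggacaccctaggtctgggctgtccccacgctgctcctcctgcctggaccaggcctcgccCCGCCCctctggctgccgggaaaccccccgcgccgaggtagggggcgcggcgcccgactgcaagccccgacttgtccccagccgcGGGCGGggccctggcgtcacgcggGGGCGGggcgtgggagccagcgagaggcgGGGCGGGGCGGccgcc
The Bax window held 2 GC boxes and 1 p53 half-site, and the Bbc3 window 5 GC boxes and no half-site. Over the 14 RefSeq starts of the 9 genes, 9 windows held a GC box, 4 a CCAAT box (CCAAT, either strand), 1 a p53 half-site and 0 a TATA box (TATAAA, either strand). Among all 32851 mouse windows of the same length, the shares were 32.7% for the GC box, 33.8% for the CCAAT box, 7.13% for the half-site and 12.4% for the TATA box. A match is a run of letters and not a measured site. Bax, Bbc3, Bcl2l2, Casp9, Bcl2 and Bcl2l11 had a GC box, and Bak1, Bcl2l1 and Casp8 had none, so both kinds included genes that fell and genes that did not pass.

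Among the survival genes, Bcl2l2 fell, whereas the more abundant Bcl2l1 and the scarce Bcl2 did not pass the test. Bcl2l2 (ENSMUSG00000089682, chromosome 14 from 54883377 to 54888234, plus strand) had 32.9 and 22.1 CPM in ULA 1 and ULA 2, against 85.5 and 54.3 CPM in BUS 1 and BUS 2. Each ULA library was below each BUS library. Its means were 27.5 ± 7.63 CPM in ULA and 70.0 ± 22.1 CPM in BUS testes (SD, n = 2 libraries each), or -1.34 on the log2 scale (SE 0.30, edgeR adjusted p = 0.0159). Of the 5 genes that fell, Bcl2l2 alone kept its call with the GC and length offset (-0.88, adjusted p = 0.0399), and among the 18 alternatives it was lost only without ULA replicate 2 (-1.07, adjusted p = 0.184). Bcl2l2 shares 594 of 4462 exonic bases with Gm20521 on the same strand, which had 3 and 2 counts in ULA 1 and ULA 2, against 15 and 5 counts in BUS 1 and BUS 2.

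Bcl2l1 (ENSMUSG00000007659, chromosome 2 from 152780668 to 152831728, minus strand), which encodes BCL-X, was the most abundant of the 9 genes in every library. It had 101.0 and 100.1 CPM in ULA 1 and ULA 2, against 117 and 133 CPM in BUS 1 and BUS 2. The groups did not overlap, but the difference was small, with a log2 fold change of -0.31, a 95% interval of -0.80 to 0.17 and an adjusted p of 0.285 from edgeR. It was 0.22 with the GC and length offset (adjusted p = 0.510). Bcl2 (ENSMUSG00000057329, chromosome 1 from 106538178 to 106714274, minus strand), the founding member of the family, had only 24 and 10 counts in ULA 1 and ULA 2, against 62 and 26 counts in BUS 1 and BUS 2. In CPM these are 1.45 and 0.793 in ULA and 3.26 and 1.28 in BUS testes, so ULA 1 lay above BUS 2. The log2 fold change of -0.99 had a 95% interval of -2.25 to 0.28 (adjusted p = 0.203 from edgeR), the widest of the 9. It was -0.18 without BUS replicate 1 and -1.52 without BUS replicate 2 (adjusted p = 0.00751). Bcl2 shares 558 of 9157 exonic bases with the antisense gene D630008O14Rik, which had at most 2 counts in any library.

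The initiator caspases were both lower in ULA, and Casp9 passed the test. Casp9 (ENSMUSG00000028914, chromosome 4 from 141793612 to 141815976, plus strand) had 18.2 and 15.5 CPM in ULA 1 and ULA 2, against 40.8 and 30.3 CPM in BUS 1 and BUS 2. The groups did not overlap. Its means were 16.8 ± 1.90 CPM in ULA and 35.5 ± 7.43 CPM in BUS testes (SD, n = 2 libraries each), or -1.08 on the log2 scale (SE 0.27, edgeR adjusted p = 0.0214). Casp9 did not pass with the GC and length offset (-0.58, adjusted p = 0.0880), without ULA replicate 1 (0.0772) or without ULA replicate 2 (0.268). Casp8 (ENSMUSG00000026029, chromosome 1 from 58795374 to 58847503, plus strand) had 6.17 and 6.34 CPM in ULA 1 and ULA 2, against 20.5 and 8.91 CPM in BUS 1 and BUS 2. Both ULA values were below both BUS values, and the BUS libraries were 2.30-fold apart. Its log2 fold change was -1.23 with a standard error of 0.41 and an adjusted p of 0.0523 from edgeR, just outside the threshold. Casp8 passed with DESeq2 (adjusted p = 0.0250), library size alone (0.00777), no filter on low counts (0.00279) and the GC and length offset (0.0414). Without BUS replicate 1 its log2 fold change was -0.53 (adjusted p = 0.304), and without BUS replicate 2 it was -1.72 (adjusted p = 7.82e-07).

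**Figure D2:**
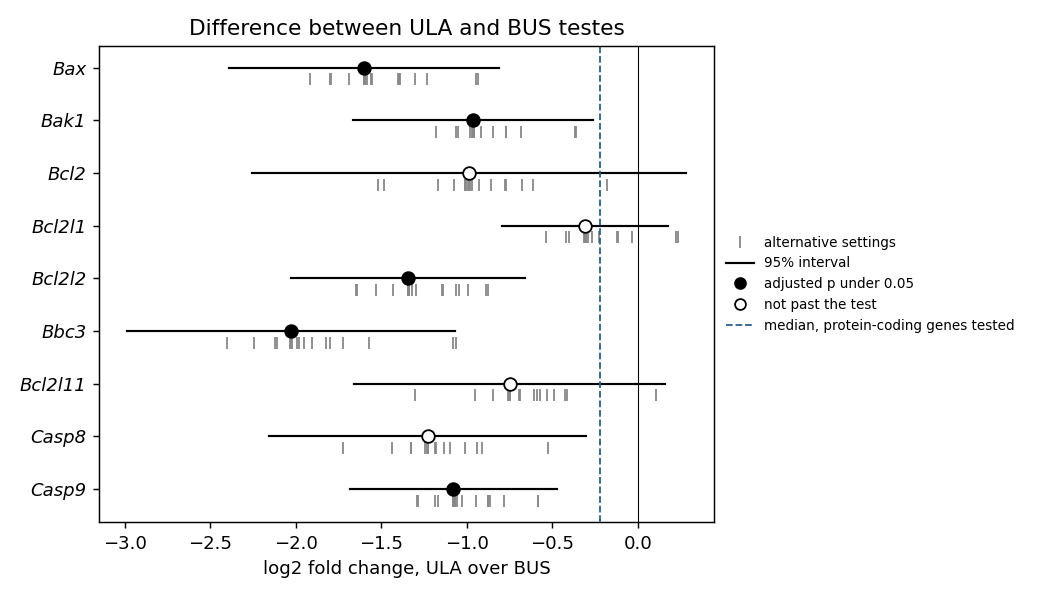
Log2 fold change of ULA over BUS for the 9 genes, with the 95% interval of the edgeR fit as a line, filled circles for an adjusted p under 0.05 and grey ticks for the 18 alternative settings. Values run from -2.03 for Bbc3 to -0.31 for Bcl2l1, and the ticks of Bcl2l1 and Bcl2l11 cross 0.

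The spread between the BUS libraries was itself uneven across the 9 genes. BUS 1 was higher than BUS 2 in 7 of them, with a median log2 ratio of 0.68. It was higher in 12103 of all 23023 genes tested (median 0.04) and in 9593 of the 16271 protein-coding ones (median 0.13). The ratio of BUS 1 to BUS 2 was 2.66 for Bcl2l11, 2.55 for Bcl2, 2.30 for Casp8 and 1.79 for Bbc3, and it was 0.994 for Bak1 and 0.877 for Bcl2l1. The ratio of ULA 1 to ULA 2 was 1.83 for Bcl2, 1.49 for Bcl2l2 and 1.31 for Bax, and lay between 0.867 and 1.17 for the other 6. Bak1 was closer in the BUS than in the ULA libraries (1.16). Bcl2l11 and Bcl2, whose groups overlapped, had the largest ratios between the BUS libraries. The log2 fold changes of Bbc3 (-1.57), Bax (-1.24), Bcl2l2 (-0.996) and Casp9 (-0.865) were smaller in size without BUS replicate 1. Those of Bak1 (-0.985) and Bcl2l1 (-0.422) were slightly larger in size without it. The values of Casp8, Bcl2 and Bcl2l11 in that fit are given above.

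Per kilobase of exon, which allows genes to be compared, the order of levels in ULA testes was Bcl2l1 (21.9 CPM per kilobase), Bcl2l2 (6.17), Bax (3.42), Casp9 (3.23), Bcl2l11 (2.67), Bak1 (2.24), Casp8 (2.16), Bbc3 (0.767) and Bcl2 (0.123). In BUS testes it was Bcl2l1 (27.2 CPM per kilobase), Bcl2l2 (15.7), Bax (10.4), Casp9 (6.84), Casp8 (5.08), Bcl2l11 (4.49), Bak1 (4.38), Bbc3 (3.13) and Bcl2 (0.248). In ULA testes the libraries of Bax and Casp9, and of Bak1 and Casp8, overlapped, and the other neighbours did not. In BUS testes the overlapping neighbours were Bcl2l2 (SD 4.95) and Bax (SD 3.43), Casp9 (SD 1.43) and Casp8 (SD 2.83), Casp8 and Bcl2l11 (SD 2.88), and Bcl2l11 and Bak1 (SD 0.0180). Dividing by the longest transcript in place of all exons put Bcl2l11 at 7.16 CPM per kilobase in BUS testes, above Casp8 at 5.68, and kept Bcl2l1 first and Bcl2 last.

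Because the pore formers fell and Bcl2l1 did not pass the test, the balance between death and survival genes was compared within each library, where scaling between libraries cancels. The ratios use the same counts as the fold changes above, which largely set their direction. They restate those differences and give no separate support. Bax plus Bak1 over Bcl2 plus Bcl2l1 plus Bcl2l2, per kilobase, was 0.213 and 0.188 in ULA 1 and ULA 2, against 0.383 and 0.300 in BUS 1 and BUS 2. The mean difference of the log2 ratio was -0.76 (pooled SD between libraries 0.20), and the groups did not overlap. With 2 libraries against 2 an exact permutation test cannot give a two-sided p below 0.333, so no test is given. Bak1 over Bcl2l1 was 0.110 and 0.0950 in ULA 1 and ULA 2, against 0.172 and 0.152 in BUS 1 and BUS 2. Bax over Bcl2 was 24.5 and 34.3 in ULA 1 and ULA 2, against 36.1 and 57.2 in BUS 1 and BUS 2, a ratio that rests on the few counts of Bcl2. Bbc3 over Bcl2l11 was also lower, at 0.261 and 0.315 in ULA 1 and ULA 2, against 0.615 and 0.917 in BUS 1 and BUS 2. Casp9 over Casp8 was 1.64 and 1.36 in ULA 1 and ULA 2, against 1.11 and 1.89 in BUS 1 and BUS 2, so the groups overlapped. With the GC and length offset the log2 fold change of Bax (-0.95) was no lower than that of Bcl2 (-1.01). Bbc3 (-1.08) stayed below Bcl2l11 (-0.59), and Bak1 (-0.37) below Bcl2l1 (0.22).

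Bcl2l1 made up 61.4% and 68.4% of the summed level of the 5 multidomain genes among the 9 in ULA 1 and ULA 2, against 40.9% and 54.0% in BUS 1 and BUS 2. Multidomain genes outside the 9 enter neither these shares nor the ratios above. Per kilobase, the survival gene Mcl1 had a mean of 18.7 CPM in ULA and 33.8 CPM in BUS testes. Bok, a relative of Bax, had 2.84 and 10.65 CPM, and Bcl2l14, a further family member, 78.8 and 34.0 CPM. Bax made up 10.8% and 9.30% in ULA 1 and ULA 2, against 20.7% and 14.9% in BUS 1 and BUS 2. The share of Bak1 was 6.73% and 6.50% in ULA 1 and ULA 2, against 7.03% and 8.19% in BUS 1 and BUS 2, a much smaller gap. Bcl2l2 made up 20.6% and 15.5% in ULA 1 and ULA 2, against 30.8% and 22.7% in BUS 1 and BUS 2.

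**Figure D3:**
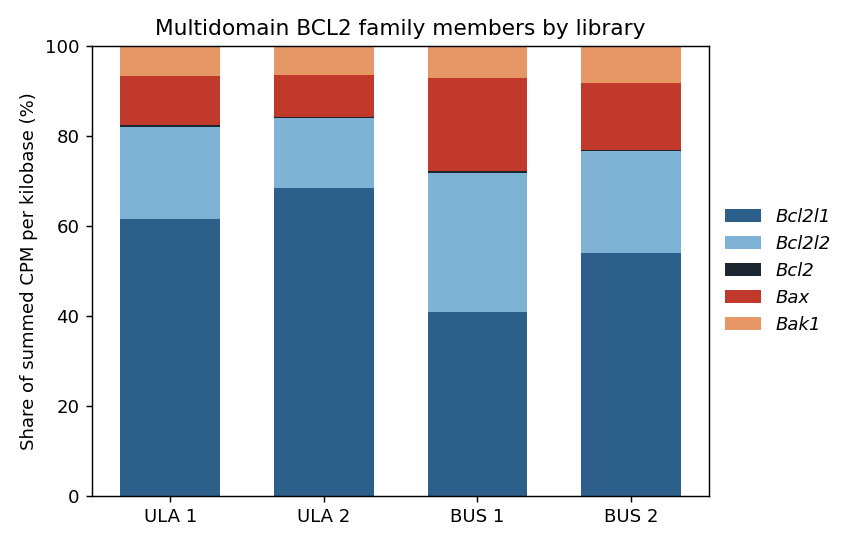
Share of the summed CPM per kilobase taken by Bcl2l1, Bcl2l2, Bcl2, Bax and Bak1 in each library, with the ULA libraries on the left. Bcl2l1 took 61.4% and 68.4% in ULA and 40.9% and 54.0% in BUS libraries, and Bcl2 was under 1% in all.

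Other genes of the apoptosis pathway, from a list of 56 that leaves out the 9, fell more often than they rose. Of the 49 that could be tested, 13 (26.5%) fell, 2 rose and 34 did not pass, with a median log2 fold change of -0.53. Among all genes tested 15.3% fell and 11.8% rose. Among the protein-coding ones 20.5% fell and 6.94% rose, with a median of -0.22, so these as a whole also fell more often than they rose. Of 6 other caspases tested, Casp6, an executioner, fell and none rose. Casp6 had a log2 fold change of -1.14 (adjusted p = 0.0450), which did not pass under 8 of the alternatives. Of the apoptosome and mitochondrial genes, 5 of 10 fell and none rose. Log2 fold changes were -1.64 for Aifm1, a flavoprotein of the intermembrane space, -1.63 for Vdac1, a channel of the outer membrane, -1.83 for Endog, a mitochondrial nuclease, and -1.02 for Cycs, the somatic cytochrome c. Cyct, the cytochrome c of testis, named here after its value was seen, had a log2 fold change of 0.52 (adjusted p = 0.149).

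Of 9 death receptors, ligands and adaptors tested, 3 fell, none rose and 6 did not pass. Fas, a death receptor of the cell surface, had 0.545 and 0.317 CPM in ULA 1 and ULA 2, against 4.16 and 1.97 CPM in BUS 1 and BUS 2 (log2 fold change -2.78, adjusted p = 0.0123 from edgeR), from 9 and 4 counts in ULA 1 and ULA 2. Tnfrsf1a, the main receptor of tumor necrosis factor, had a log2 fold change of -1.82 and its adaptor Tradd of -1.71. Among the other multidomain genes, Bok (-1.90), a relative of Bax, and the survival gene Mcl1 (-0.86) fell. Bcl2l14, a further family member, rose to 266 and 379 CPM in ULA 1 and ULA 2, against 122 and 156 CPM in BUS 1 and BUS 2 (log2 fold change 1.21, adjusted p = 0.0142 from edgeR). Of 9 inhibitors of apoptosis, Birc6, a giant ubiquitin ligase, rose (0.76, adjusted p = 0.0357), and Xiap, which binds caspases directly, fell (-1.03, adjusted p = 0.0420). None of the 5 other BH3-only genes tested passed, with -0.84 for Bid and -0.19 for Bad. Dffb (-0.28), which encodes the nuclease that cuts DNA between nucleosomes, and its partner Dffa (-0.35) did not pass either. Of 3 p53 genes tested, 1 fell and none rose. Trp53, which encodes p53, an inducer of Bax and Bbc3, fell (-1.29, adjusted p = 0.0223). Mdm2 (0.13) and Trp63 (0.78), named here after their values were seen, did not pass, and both had higher levels in both ULA libraries.

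These calls varied in firmness. Bok and Tnfrsf1a kept theirs under all 18 alternatives, and Fas under every one but that of at least 10 counts in every library, where it was not tested. Bcl2l14, Aifm1 and Vdac1 lost theirs only without ULA replicate 2 (adjusted p = 0.221, 0.0952 and 0.0749). Birc6 did not pass with the GC and length offset (0.17, adjusted p = 0.596) or library size alone (0.207), or without either ULA library. Trp53 did not pass with the offset (-0.84, adjusted p = 0.0555) or without ULA replicate 2 (0.237), and Endog, Mcl1, Casp6, Cycs, Xiap and Tradd each lost their call under 3 or more alternatives, that without ULA replicate 2 among them. Without BUS replicate 1, Casp6 (-0.56), Cycs (-0.53) and Xiap (-0.67) did not pass. The called values of Fas (-2.16), Bok (-1.23), Tnfrsf1a (-1.15), Vdac1 (-1.13) and Tradd (-1.04) were smaller in size. Those of Endog (-1.65), Aifm1 (-1.35), Trp53 (-0.91), Mcl1 (-0.63) and Bcl2l14 (1.03) were smaller too, and that of Birc6 (0.82) was larger. Over the list, 3 genes fell and 0 rose without ULA replicate 2, 10 and 1 without ULA replicate 1, 23 and 4 without BUS replicate 2, and 10 and 2 without BUS replicate 1.

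**Figure D4:**
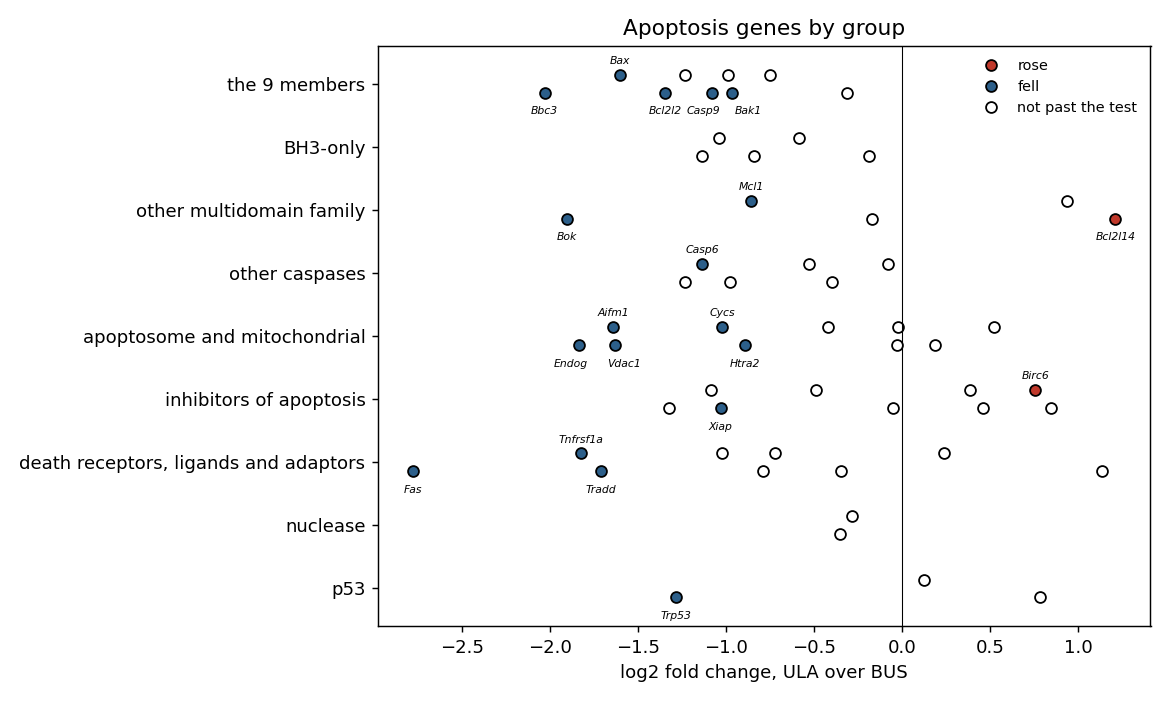
Log2 fold change of ULA over BUS for the 9 genes and the 49 tested genes of the pathway list by group, with genes that rose in red, genes that fell in blue and the rest open. Genes that fell lie between -2.78 (Fas) and -0.86 (Mcl1), and Bcl2l14 (1.21) and Birc6 (0.76) rose.

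The closest genes of the pathway list were also sought by profile over the 4 libraries, measured as the root mean square difference of centred log2 CPM. Bcl2l2 was closest to Trp53 (0.0429, beside a median of 0.499 over the 49 list genes), Bcl2l1 to Bad (0.0820) and Bax to Vdac1 (0.107). Casp8 was closest to Casp6 (0.104), Casp9 to Mcl1 (0.111), Bcl2 to Casp12 (0.129), Bak1 to Htra2 (0.145) and Bcl2l11 to Casp4 (0.150). Among the genes reported here Bbc3 was closest to Endog (0.236), the poorest match of the 9. Within the 9, Bax and Bcl2l2 were closest to each other (0.133), a death gene and a survival gene with the same order of libraries. These are descriptions over 4 libraries.

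Markers of several testis cell types moved with these genes. Sertoli cell markers fell in 11 of 12 genes, and their summed level was 1863 and 1147 CPM in ULA 1 and ULA 2, against 6091 and 3161 CPM in BUS 1 and BUS 2. Of 9 Leydig cell markers, 8 fell and 1 rose, with sums of 1303 and 748 CPM in ULA 1 and ULA 2, against 8422 and 5814 CPM in BUS 1 and BUS 2. Spermatid markers rose in 8 of 11 genes, with sums of 8326 and 12660 CPM in ULA 1 and ULA 2, against 3060 and 4278 CPM in BUS 1 and BUS 2. The 9 apoptosis regulators summed to 195 and 177 CPM in ULA 1 and ULA 2, against 358 and 275 CPM in BUS 1 and BUS 2. Spermatogonial markers fell in 3 of 10 genes, with sums of 499.5 and 433 CPM in ULA 1 and ULA 2, against 604 and 653 CPM in BUS 1 and BUS 2. Spermatocyte markers rose in 1 of 10 genes, with sums of 4258 and 4459 CPM in ULA 1 and ULA 2, against 2332 and 3341 CPM in BUS 1 and BUS 2. The sums of the 9 genes thus ran the same way as those of the Sertoli, Leydig, endothelial and spermatogonial lists. The spermatogonial list was mixed, since 7 of its 10 genes did not pass the test and 3 had positive log2 fold changes. Its most abundant gene, Dmrtb1, had 301 and 283 CPM in ULA 1 and ULA 2, against 219 and 325 CPM in BUS 1 and BUS 2.

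None of 9 macrophage markers passed the test. They summed to 214 and 139 CPM in ULA 1 and ULA 2, against 642 and 155 CPM in BUS 1 and BUS 2, so BUS 1 alone was high, as in Bcl2l11. Endothelial markers fell in 3 of 6 genes, with sums of 65.4 and 61.6 CPM in ULA 1 and ULA 2, against 149 and 82.8 CPM in BUS 1 and BUS 2. Peritubular cell markers fell in 4 of 6 genes and rose in 1, with sums that overlapped between the groups. Only 2 of 6 lymphocyte markers could be tested and neither passed, with sums of 1.82 and 3.57 CPM in ULA 1 and ULA 2, against 3.37 and 4.18 CPM in BUS 1 and BUS 2. None of the marker genes was at 0 in all 4 libraries. The part of these cell types in the results for the 9 genes was not tested.

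**Figure D5:**
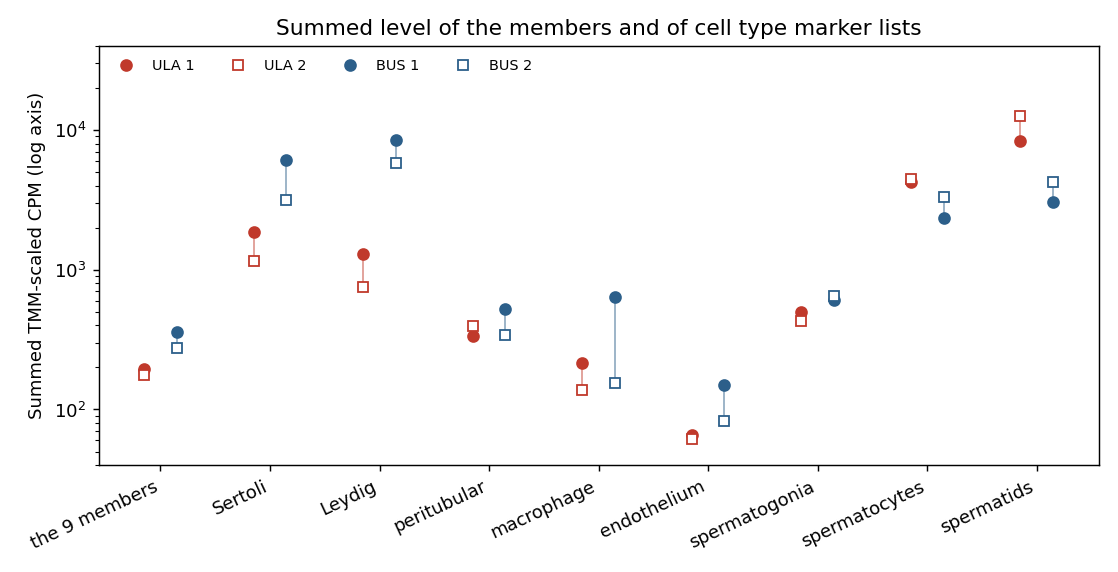
Summed TMM-scaled CPM (log axis) of the 9 genes and of 8 lists of cell type markers in each library. The 9 genes and the Sertoli, Leydig, endothelial and spermatogonial lists were lower in both ULA libraries, the spermatocyte and spermatid lists were higher, and the macrophage list was high in BUS 1 alone (642 CPM).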

How the data were processed

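RNA from whole mouse testis was measured in 2 ULA and 2 BUS libraries. The deposited values are raw counts for each Ensembl gene, as the authors made them. The paper names Fastp, STAR, GRCm38 and FeatureCounts, the submitters' processing notes name RSEM 1.3.1, and which tool made the whole-number counts was not settled; strand setting and the rule for reads with several hits are not given in the sources used here, and the ULA columns carry a letter A that no source explains. Symbols, coordinates, lengths and GC content came from GENCODE M21 (GRCm38), which named 52081 of 57010 identifiers. Promoter windows came from RefSeq (GRCm38.p6), where all 9 genes matched.

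Genes were kept by filterByExpr with a minimum count of 10 and a total of at least 15. They were scaled by TMM and tested with edgeR 4.0.16 (quasi-likelihood test, R 4.3.3), with p-values adjusted by Benjamini-Hochberg over all 23023 genes tested. Standard errors come from the F statistic and 95% intervals from 2 residual and 7.18 prior degrees of freedom. Taking 3 counts as the limit that a count of 0 allows, the highest such limit in a library was 0.238 CPM (counting error only). Alternatives used other scaling (upper-quartile, RLE, or library size alone), other tests (limma-voom, limma 3.58.1, and DESeq2 1.42.0), other filters, a block for replicate number, fits that left out 1 library, subsets of genes, an offset for GC content and length (mgcv 1.9.3, 8 basis functions; 22444 genes) and an unadjusted p under 0.05 with a fold of 1.5. Protein-coding genes alone with the block, and ratios without each library, were chosen after seeing the data. The ratio of Bbc3 over Bcl2l11 was not among the ratios named beforehand. The steps were tested on simulated data. An item of the pathway list is not reported here and enters no count of that list. The 9 genes and the lists were chosen with earlier results of these data known. From each group of the pathway list, the text names up to 4 called genes in order of p, or, with no call, the 2 of highest level, and each gene's nearest profile (CPM plus 0.1, log2). No batch is given in the labels, so a batch that follows the groups cannot be told apart from them.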

Additional observations from a re-analysis of the deposited data

How the results depend on the processing

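The number of the 9 genes that fell was 5, beside 15.3% of all genes tested. It was 2 with the GC and length offset (Bcl2l2 and Casp8), where 12.5% of the genes tested fell. Under the other alternatives that kept all libraries it was 4 to 7, where 10.3% to 29.4% of the genes tested fell. When a library was left out, the median of the 9 ran from -1.52 (without BUS replicate 2) to -0.87 (without BUS replicate 1). Fewer genes passed when either ULA library was left out, among the 9 and among all genes. None rose under any of the 18 alternatives. All 9 lay below the median of all genes, except Bcl2l1 with the GC and length offset (0.22, and 0.24 with the block added) and Bcl2l11 without BUS replicate 1 (0.10, against -1.31 without BUS replicate 2). Scaling shifted the median log2 fold change of all genes from 0.02 to 0.31 with upper-quartile factors and to -0.20 with library size alone, with members' medians of -0.78 and -1.29, and the cause of changes beyond such shifts was not tested. Fits without 1 library assume that a lone library varies like the others.

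Of the pathway list, 13 fell and 2 rose. Upper-quartile factors and protein-coding genes alone gave 7 that fell each, limma-voom 8, library size alone 20, no filter on low counts 20 and the replicate block 21; 1 rose with library size alone and 1 with the GC and length offset. Protein-coding genes alone with the block gave 21 that fell and 6 that rose. Leaving out a library gave 3 to 23 that fell and 0 to 4 that rose. Bad had values above 0 with upper-quartile factors (0.10), protein-coding genes alone (0.0051, and 0.0082 with the block) and the GC and length offset (0.24, and 0.24 with the block), as did Dffb with upper-quartile factors (0.022) and without BUS replicate 1 (0.14, against -0.63 without BUS replicate 2).

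Over all genes, 2706 were higher and 3512 lower. The counts were 4282 higher and 2364 lower with upper-quartile factors, 1877 and 5031 with library size alone, 1475 and 2258 with protein-coding genes alone, 4254 and 4800 with these and the block, 4979 and 5627 with the GC and length offset and the block, and 4464 and 5231 by unadjusted p and fold. Leaving out a library gave 656 to 5556 higher and 714 to 6429 lower. The replicate numbers are not known to pair animals; deviations of same-numbered libraries correlated at 0.325 across genes, and with the replicate block 5151 genes were higher, 5901 lower and 6 of the 9 fell, Casp8 being added. When a library was left out, which with 2 per group cannot move such a value by more than 1 pooled SD, differences of the within-library ratios ran over -0.94 to -0.59 for pore formers over survival genes, -0.76 to -0.56 for Bak1 over Bcl2l1, -0.98 to -0.32 for Bax over Bcl2, -1.68 to -1.10 for Bbc3 over Bcl2l11 and -0.34 to 0.43 for Casp9 over Casp8. Bcl2 rests on 10 to 62 counts a library.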
